A study of Mus musculus with 6 samples.

Results

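The genes described here encode the protein subunits of the mitochondrial ribosome, measured in 3T3-L1 adipocytes treated with antiretroviral drugs and conjugated linoleic acid (CLA) isomers. Members were all genes whose annotated symbol begins with Mrpl (large subunit) or Mrps (small subunit) followed by a digit. Where a gene had more than 1 probe set with a single symbol, the one with the highest mean over the arrays was used. This gave 76 of 18194 named genes, 47 in the large and 29 in the small subunit by symbol. Mrpl30 and Mrpl53 were matched only by probe sets with several symbols and are not members. All 76 were detected, meaning that 1 or more arrays gave a value of 6.55 (the median over the table) or above, as did 12386 of the named genes. Member values lay between 8.91 and 13.51 on the log2 scale.

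The mitochondrial ribosome translates the few membrane proteins encoded by mitochondrial DNA, which are core subunits of the respiratory chain and of ATP synthase. Its RNAs are transcribed inside the organelle, whereas all of its proteins are made from nuclear genes and imported. Part of the proteins descend from bacterial ribosomal proteins and the others are found only in mitochondria. In white adipocytes mitochondria are formed in quantity during differentiation and supply energy and precursors for fat synthesis.

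3T3-L1 is a mouse preadipocyte line that accumulates fat after hormonal induction, and every culture here was induced to differentiate with insulin, 3-isobutyl-1-methylxanthine and dexamethasone. Exposure lasted 5 days. In a first set, cultures were given either 20 µM ritonavir, which blocks the protease of HIV, or 1 µM tenofovir, a nucleotide analogue that blocks its reverse transcriptase, or 0.1% ethanol as vehicle. The other set received ritonavir at 20 µM in every culture, together with t10,c12-CLA at 100 µM, with c9,t11-CLA at 100 µM, or with DMSO at 0.1% as their control. The 2 isomers are forms of linoleic acid whose neighbouring double bonds lie at different carbons, with the trans bond first in one and second in the other. The sources used here do not give whether the CLA cultures also held DMSO, nor whether the culture of ritonavir with DMSO also held ethanol.

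RNA of 4 replicate experiments was pooled for each of the 6 groups and hybridised to 1 Affymetrix array. No spread between replicates can therefore be computed, and every difference below is between 2 arrays, with no test and no p-value. Counts of members are set beside the same count over all detected genes. RNA came from whole cultures, so fewer cells of a type and less RNA per cell cannot be told apart.

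Levels of cell type markers moved with the treatments. Of 10 adipocyte markers, 9 had a named probe set (Plin1 had none), and the log2 of their summed linear level was 16.0 with ritonavir and t10,c12-CLA, 16.7 with ritonavir and c9,t11-CLA, 16.7 with ritonavir and DMSO, 15.5 with ritonavir alone, 17.1 with tenofovir and 17.1 with ethanol. This sum is made up largely of Lpl and Fabp4, which lie near the top of the scale, so the median of the markers is given beside each comparison. Lep was below 6.55 on all arrays with ritonavir and is counted at its listed value. The 6 preadipocyte and fibroblast markers, all detected, summed to 14.1, 13.6, 13.4, 15.5, 14.2 and 14.2 on the same arrays in the same order. The 4 macrophage markers summed to 10.4, 9.05, 9.21, 9.38, 8.53 and 8.66, with Adgre1 and Ptprc below the detection level on every array and Cd68 at 10.10 with t10,c12-CLA, against 8.43 with DMSO. In the lists for endothelial cells, skeletal muscle and epithelium, Pecam1 and Cdh5, Myog and Myh1, and Cdh1 were below the detection level throughout. Their other markers Kdr, Ckm and Epcam reached it on every array, and Krt18 only with tenofovir and ethanol. In ritonavir against ethanol Krt18 was at -2.12 and Epcam at -0.625. The sums over these 3 lists ran from 7.76 to 8.01, from 7.69 to 7.99 and from 9.56 to 10.4 over the arrays, the last with Epcam as its main contributor. The part of these marker shifts in the differences described below was not tested. The beta-actin probe sets, whose 3′ minus 5′ difference rises as RNA is degraded, gave differences between 0.19 with ritonavir and 0.54 with c9,t11-CLA, and the median of all probe sets was 6.54 to 6.56 on the 6 arrays.

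The promoters of 6 members are shown because these genes differed most from ethanol with ritonavir alone: the 5 lowest, all in the large subunit, and Mrpl47, the highest. Each sequence is the 250 bases before the annotated start, from RefSeq on build GRCm38.p6, read 5′ to 3′ on the strand of the gene. Capitals mark matches to any of 6 motifs searched on both strands, named below. For Mrpl45 and Mrpl18 the annotated gene begins further upstream than the start used here.
Mrpl45 (chr11:97315466-97315715, + strand): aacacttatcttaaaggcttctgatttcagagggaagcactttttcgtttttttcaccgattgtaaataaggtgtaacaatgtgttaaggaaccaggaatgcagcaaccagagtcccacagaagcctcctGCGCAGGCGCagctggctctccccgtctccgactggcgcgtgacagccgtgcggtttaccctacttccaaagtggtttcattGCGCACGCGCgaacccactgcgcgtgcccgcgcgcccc
Mrpl51 (chr6:125191950-125192199, + strand): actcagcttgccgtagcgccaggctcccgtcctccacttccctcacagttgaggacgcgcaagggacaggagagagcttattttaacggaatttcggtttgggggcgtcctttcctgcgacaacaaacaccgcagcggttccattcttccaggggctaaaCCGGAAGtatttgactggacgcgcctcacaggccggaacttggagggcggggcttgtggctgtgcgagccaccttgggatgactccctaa
Mrpl18 (chr17:12916092-12916341, - strand): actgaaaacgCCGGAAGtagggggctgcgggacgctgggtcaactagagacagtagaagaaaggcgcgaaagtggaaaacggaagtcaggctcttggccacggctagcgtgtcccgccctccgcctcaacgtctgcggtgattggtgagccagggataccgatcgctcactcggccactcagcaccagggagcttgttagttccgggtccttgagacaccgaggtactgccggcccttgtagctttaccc
Mrpl12 (chr11:120484387-120484636, + strand): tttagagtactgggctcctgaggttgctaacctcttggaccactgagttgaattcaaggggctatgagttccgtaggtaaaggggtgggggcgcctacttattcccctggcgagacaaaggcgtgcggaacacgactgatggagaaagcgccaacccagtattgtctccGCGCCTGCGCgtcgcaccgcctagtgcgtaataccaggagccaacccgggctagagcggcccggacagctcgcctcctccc
Mrpl20 (chr4:155802628-155802877, + strand): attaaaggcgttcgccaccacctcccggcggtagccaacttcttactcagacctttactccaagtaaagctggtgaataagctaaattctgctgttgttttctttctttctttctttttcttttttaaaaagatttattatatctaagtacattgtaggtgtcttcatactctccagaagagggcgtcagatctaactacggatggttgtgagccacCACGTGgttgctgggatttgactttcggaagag
Mrpl47 (chr3:32736756-32737005, - strand): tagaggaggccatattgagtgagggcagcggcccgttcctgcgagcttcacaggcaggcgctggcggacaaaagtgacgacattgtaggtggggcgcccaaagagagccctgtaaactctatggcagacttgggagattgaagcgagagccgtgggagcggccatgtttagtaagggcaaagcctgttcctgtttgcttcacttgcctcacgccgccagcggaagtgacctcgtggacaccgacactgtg

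The motifs were those of NRF1 (GCGCA and GCGC with any base between them), of GABPA and other ETS factors (CCGGAAG), of YY1 (AAGATGGC), of MYC (the E-box CACGTG), of the estrogen-related receptors (AAGGTCA) and of SP1 (GGGGCGGGG), and none of them contains another. NRF1 and GABPA are transcription factors known for controlling many nuclear genes of mitochondria. In the bases shown, Mrpl45 held 2 NRF1 matches, at 120 and 38 bases before the start, and Mrpl12 held 1 at 81 bases before it. Mrpl51 and Mrpl18 each held an ETS match, Mrpl20 held an E-box, and Mrpl47 held none of the 6. A match is a run of letters and not a site shown to be bound.

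Windows of 250 bases before to 50 after a start were given for 67 members (73 windows). The ETS motif was in 34.2% of the member windows, against 8.86% of all 32851 windows and 16.5% of the 12782 windows of detected genes. The YY1 motif was in 16.4% of the member windows, against 2.75% of all windows and 4.22% of those of detected genes, and the NRF1 motif in 16.4%, against 4.6% and 9.38%. The SP1 motif was in 20.5%, against 11.4% and 20.7%, the E-box in 9.59%, against 7.15% and 9.69%, and the estrogen-related receptor motif in 5.48%, against 4.72% and 3.18%. These shares are descriptions of the letters in the windows. In ritonavir against ethanol the median log2 difference was -0.21 for members with an NRF1 match and -0.11 for those without, -0.13 with and -0.16 without an ETS match, and -0.17 with and -0.13 without a YY1 match. For the others it was -0.23 with and -0.13 without an E-box, -0.23 with and -0.13 without an estrogen-related receptor match, and -0.20 with and -0.12 without an SP1 match. Members with a match numbered 12 for NRF1, 25 for ETS, 12 for YY1 and 13 for SP1. They were only 5 for the E-box and 4 for the estrogen-related receptors.

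Across the 6 arrays the members stood highest with ritonavir and DMSO and lowest with ritonavir alone. Relative to each gene's own mean over the arrays, the median member was at 0.00 with t10,c12-CLA, 0.06 with c9,t11-CLA, 0.17 with ritonavir and DMSO, -0.17 with ritonavir alone, 0.01 with tenofovir and -0.08 with ethanol. With ritonavir and DMSO, 75 of 76 members were above their own mean, beside 6386 of 12386 detected genes, and 49 (64.5%) had their highest value on that array, as had 13.2% of all detected genes. With ritonavir alone, 46 members (60.5%) had their lowest value, as had 27.5% of all detected genes, and ethanol held the lowest value of another 21, and of 18.7% of all detected genes. The lowest value was on the ritonavir array for 31 of 47 large subunit members (66.0%) and 15 of 29 small subunit members (51.7%). The highest value was on the array of ritonavir with DMSO for 28 (59.6%) and 21 (72.4%) of them.

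**Figure D1:**
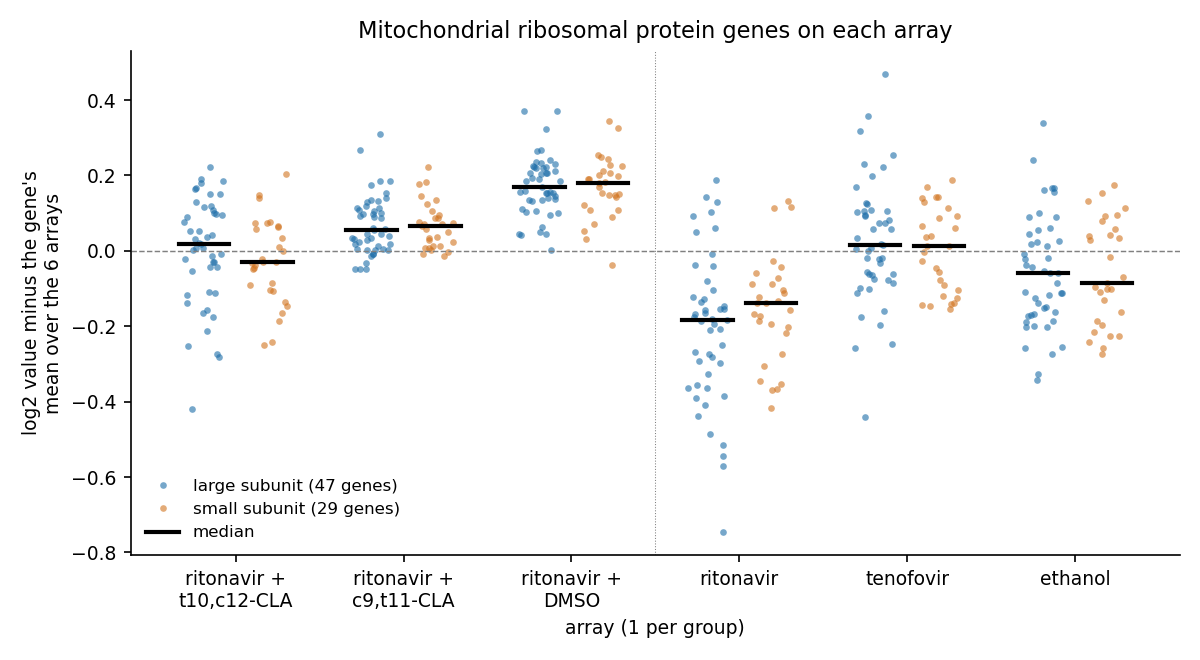
Log2 value minus the gene's own mean over the 6 arrays (vertical axis) for each of the 76 members, by array (horizontal axis), with large and small subunit members in separate colours and bars at their medians. Members stood highest on the array of ritonavir with DMSO (median 0.17) and lowest on the array of ritonavir alone (median -0.17).

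The distance between a member's highest and lowest value was modest. Its median was 0.42 on the log2 scale, beside 0.48 for all detected genes. It was smallest for Mrpl40, at 0.22, and largest for Mrpl20, at 1.12, followed by Mrpl45 at 0.91. The 5 widest ranges, those of Mrpl20, Mrpl45, Mrpl51, Mrpl18 and Mrpl1, belonged to large subunit genes. The widest of the small subunit by symbol was that of Mrps18a, at 0.65, whose protein is placed in the large subunit.

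Ritonavir alone lay below ethanol for most members, by a small amount. The median log2 difference was -0.15 over the 76 members, -0.15 in the large subunit and -0.15 in the small subunit, beside 0.00 for all detected genes. Against tenofovir, which also lacked ritonavir, the median of the members was -0.22. Lower values were found for 51 of 76 members, beside 49.8% of detected genes, namely 33 of 47 in the large and 18 of 29 in the small subunit. At least 1.5-fold lower were 5 members, all of the large subunit, beside 12.4% of detected genes, and no member was at least 1.5-fold higher, beside 12.4%. None reached a 2-fold difference in either direction, whereas 6.39% of detected genes were at least 2-fold lower and 4.56% at least 2-fold higher. With every probe set of a gene averaged, the large minus small subunit median was -0.15, against 0.01 here. Without probe sets whose names carry any letter suffix (_a_at, _s_at or _x_at), 3 members in place of 5 were at least 1.5-fold lower. At least 2-fold lower were 7 of the 9 adipocyte markers, whose median was -3.50, as far as -6.57 for Retn. Of the 6 preadipocyte and fibroblast markers 4 were at least 1.5-fold higher, as far as 3.77 for Tagln, while Dlk1 was at -0.11 and Pdgfra at -0.07.

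Mrpl45, which lies at the exit of the tunnel for the new protein chain and links the ribosome to the inner membrane, had 11.41 with t10,c12-CLA, 11.83 with c9,t11-CLA, 11.87 with ritonavir and DMSO, 11.39 with ritonavir alone, 12.30 with tenofovir and 12.17 with ethanol. All arrays with ritonavir were below both arrays without it, and ritonavir alone was 1.71-fold below ethanol (log2 difference -0.78). Mrpl51, a protein found only in mitochondrial ribosomes, had 12.29, 12.66, 12.70, 12.05, 12.88 and 12.81 on the arrays in the same order. It too was lower on every array with ritonavir than on the others, 1.69-fold with ritonavir alone (-0.75). Its other detected probe sets gave -0.26 and 0.05 in the same comparison, so the probe sets for Mrpl51 disagree.

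Mrpl18, a protein of the central protuberance at the top of the large subunit, had 11.29 with t10,c12-CLA, 11.72 with c9,t11-CLA, 11.76 with ritonavir and DMSO, 10.97 with ritonavir alone, 11.79 with tenofovir and 11.70 with ethanol. Only the arrays of ritonavir alone and of ritonavir with t10,c12-CLA stood lower, and the difference between ritonavir and ethanol was 1.66-fold (-0.73). Mrpl12 forms part of the stalk that recruits translation factors and is also known to bind the mitochondrial RNA polymerase, and it had 12.21, 12.56, 12.65, 11.88, 12.65 and 12.57 on the arrays in that order. Again the arrays of ritonavir alone and of t10,c12-CLA were the lowest, and ritonavir was 1.62-fold below ethanol (-0.70). Mrpl20, whose bacterial counterpart is needed to assemble the large subunit, had 11.75, 12.04, 12.10, 10.98, 11.83 and 11.68. It was low on the array of ritonavir alone and not on any other, at 1.62-fold below ethanol (-0.69).

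Mrpl34 (-0.54), a large subunit protein, and 2 small subunit genes, Mrps22 (-0.52), a protein of mitochondria alone, and Mrps12 (-0.51), which lies at the decoding centre, followed at less than 1.5-fold. Mrps22 had 11.32 with t10,c12-CLA, 11.36 with c9,t11-CLA, 11.46 with ritonavir and DMSO, 10.98 with ritonavir alone, 11.50 with tenofovir and 11.51 with ethanol. For Mrps22 the array of ritonavir alone stood below the other 5, which spanned a narrow range.

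The members highest with ritonavir against ethanol were Mrpl47 (0.44), Mrpl24 (0.40), Mrpl23 (0.39), Mrpl13 (0.38) and, in the small subunit, Mrps15 (0.37). Mrpl23, Mrpl24 and Mrpl47 are counterparts of bacterial proteins around the end of the exit tunnel. Mrpl47 had 10.72 with t10,c12-CLA, 10.71 with c9,t11-CLA, 10.83 with ritonavir and DMSO, 10.69 with ritonavir alone, 10.34 with tenofovir and 10.24 with ethanol. For Mrpl47 all arrays with ritonavir lay above both arrays without it, the reverse of Mrpl45. Mrpl24 was split in the same way, with 11.76, 11.59, 11.83, 11.72, 11.34 and 11.32 on those arrays.

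**Figure D2:**
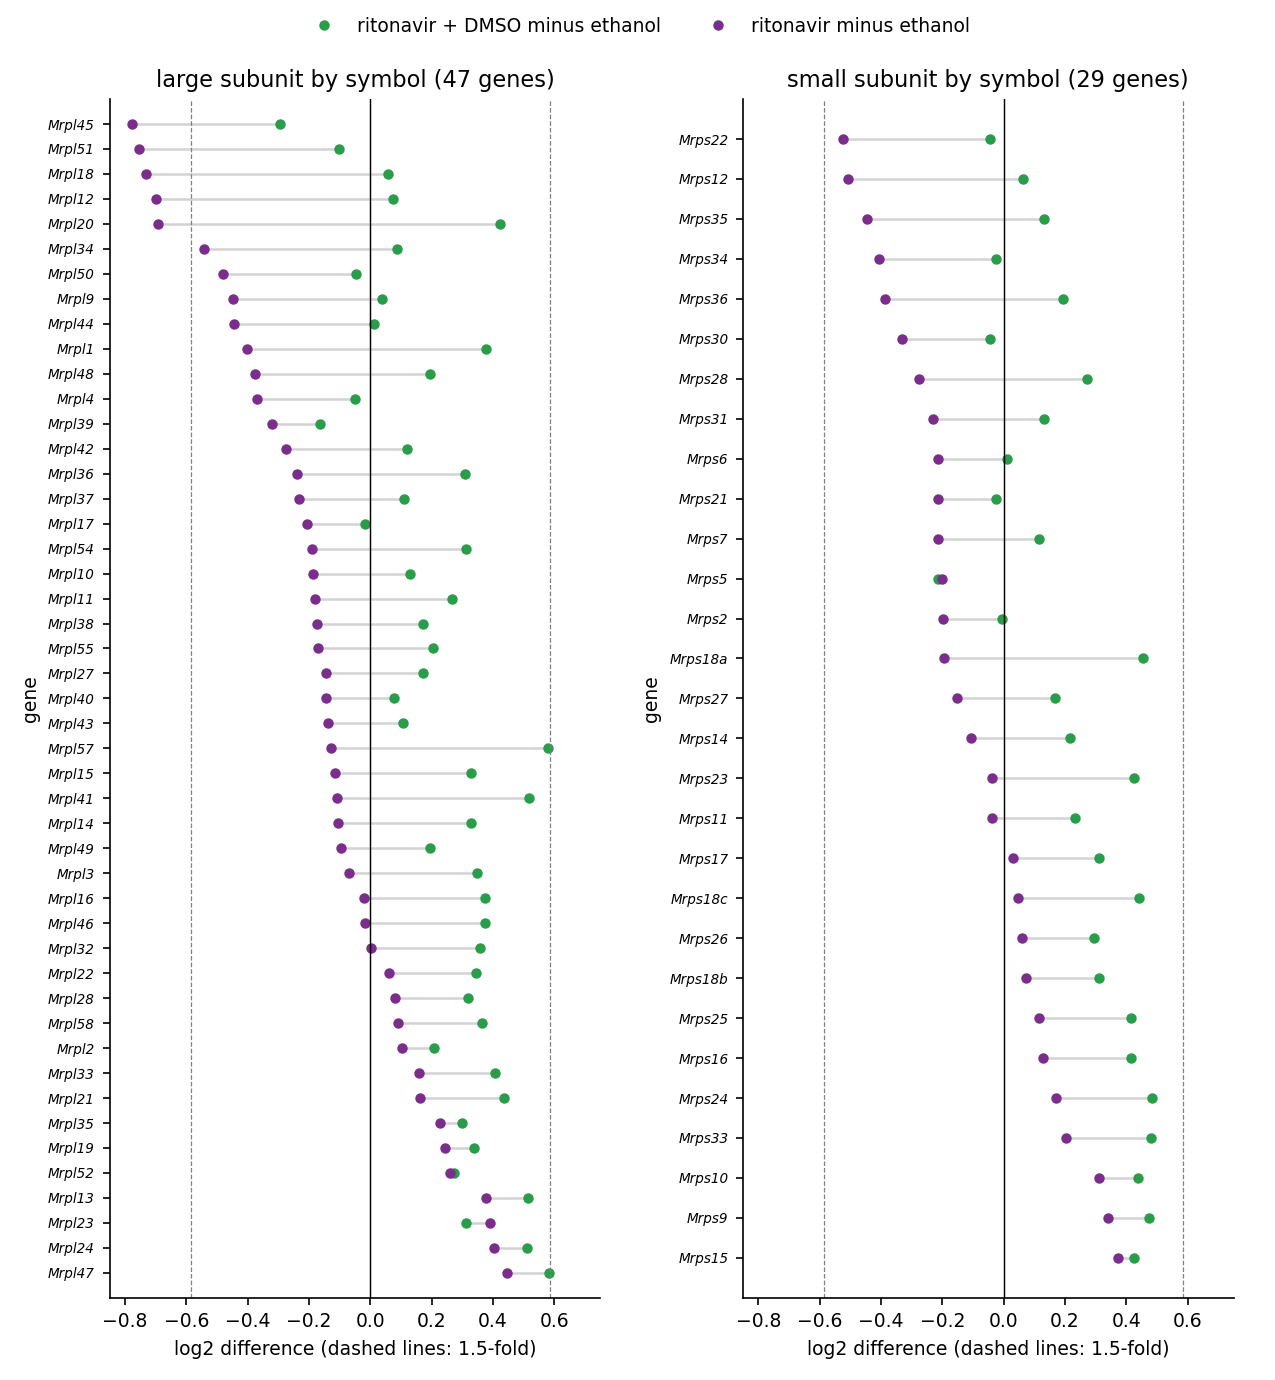
Log2 differences (horizontal axis) of ritonavir with DMSO minus ethanol (green) and of ritonavir alone minus ethanol (purple) for each of the 76 members, ranked by ritonavir alone within the large and the small subunit, with dashed lines at a 1.5-fold difference. With ritonavir alone 5 of 47 large subunit genes (10.6%) passed the lower line, from Mrpl45 (-0.78) to Mrpl20 (-0.69), beside 12.4% of detected genes. The points of ritonavir with DMSO lay to the right of those of ritonavir alone for 74 of the 76, beside 50.9% of detected genes.

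By position in the ribosome, the 3 stalk genes (Mrpl10, Mrpl11 and Mrpl12) were all lower with ritonavir than with ethanol, with a median of -0.19. Mrpl10 and Mrpl11 were at -0.19 and -0.18, so Mrpl12 stood apart from the other 2. The 7 genes of the central protuberance (Mrpl18, Mrpl27, Mrpl38, Mrpl40, Mrpl46, Mrpl48 and Mrpl55) were likewise all lower, with a median of -0.17 and values from -0.73 for Mrpl18 to -0.02 for Mrpl46. The 6 genes listed at or near the exit tunnel, a selection that leaves out Mrpl47, were divided. Mrpl45, Mrpl44 (-0.44) and Mrpl39 (-0.32), which are mitochondria-specific proteins, were lower, while Mrpl22 (0.06), Mrpl23 and Mrpl24, which have bacterial counterparts, were higher. This split holds for the listed genes only. Of all 29 large subunit members with a bacterial counterpart 17 were lower, beside 49.8% of detected genes.

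Around the decoding site and the messenger RNA path of the small subunit, Mrps12, Mrps7 (-0.21) and Mrps11 (-0.04) were all lower with ritonavir. The 3 genes descended from a single bacterial S18 protein differed little from ethanol, with -0.20 for Mrps18a, 0.07 for Mrps18b and 0.05 for Mrps18c. The protein of Mrps18a is now placed in the large subunit. Mrps30, whose protein also belongs to the large subunit despite its symbol, was at -0.33. Mrps36, at -0.39, is now known as a subunit of the alpha-ketoglutarate dehydrogenase complex.

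Members were also grouped by whether the current nomenclature of ribosomal proteins gives them the name of a bacterial protein. Mrps18a and Mrps18b, although related to S18, are counted as mitochondria-specific in it, since only Mrps18c carries that name. In ritonavir against ethanol 49.8% of detected genes were lower, the share to set beside the counts that follow. Of 30 mitochondria-specific members 24 were lower with ritonavir than with ethanol (median -0.18). So were 26 of 45 members named for a bacterial counterpart (median -0.10), with Mrps36 in neither group. Within the large subunit these counts were 16 of 18 (median -0.18) and 17 of 29 (median -0.10). Within the small subunit they were 8 of 12 (median -0.17) and 9 of 16 (median -0.07). The same split in ritonavir with DMSO against ethanol gave medians of 0.17 for mitochondria-specific members and 0.31 for the others. These 2 comparisons share the ethanol array.

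In ritonavir with DMSO against ethanol most members were higher. The comparison crosses the 2 sets of cultures, so ritonavir, vehicle and set of experiments cannot be told apart. The median was 0.27, with 0.27 in the large and 0.23 in the small subunit, beside 0.02 for all detected genes. Against tenofovir, the other array without ritonavir, the median was 0.15. Higher values were found for 64 of 76 members, beside 52.0% of detected genes. No member differed by 1.5-fold in either direction, beside 7.69% of detected genes lower and 6.45% higher. The highest were Mrpl47 (0.58), Mrpl57 (0.58), Mrpl41 (0.52) and Mrpl13 (0.51), all of the large subunit and just under 1.5-fold for the first 2. The lowest of the 12 members below ethanol were Mrpl45 (-0.29), Mrps5 (-0.21), a small subunit protein of the messenger RNA entrance, Mrpl39 (-0.16) and Mrpl51 (-0.10). For Mrpl51 another probe set gave 0.81 here. At least 2-fold lower were 5 of the 9 adipocyte markers, whose median was -1.04. The preadipocyte and fibroblast markers were divided, with Dlk1 at -1.77 and Col1a1 at -1.31 but Tagln at 0.83 and Acta2 at 0.35.

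The arrays of ritonavir with DMSO and of ritonavir alone both held RNA of cells given 20 µM ritonavir, and of the 7 comparisons it is the one with the largest median difference of the members. It was 0.32, with 0.36 in the large and 0.30 in the small subunit, beside 0.01 for all detected genes. Higher with DMSO were 74 of 76 members, beside 50.9% of detected genes, and the exceptions were Mrpl23 (-0.08) and Mrps5 (-0.01). Mrpl52 (0.01) and Mrps15 (0.05) were next. Vehicle and set of experiments cannot be told apart in this comparison. At least 1.5-fold higher with DMSO were 9 members, beside 8.43% of detected genes, and no member was 1.5-fold lower, beside 6.18%.

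Of these 9 members, 8 belonged to the large subunit by symbol. Mrpl20 had 12.10 with DMSO, against 10.98 with ritonavir alone, a 2.17-fold difference (1.12), and was the only member past 2-fold, beside 2.83% of detected genes. The others were Mrpl18 (0.79), Mrpl1 (0.78), Mrpl12 (0.77), Mrpl57 (0.71), Mrpl51 (0.65), Mrpl41 (0.63) and Mrpl34 (0.63), and Mrps18a (0.65). Mrps18a is in the small subunit by symbol only, since its protein is placed in the large subunit. With every probe set averaged, those past 1.5-fold were Mrpl12, Mrpl18, Mrpl20, Mrpl41, Mrps18a and Mrps23 (0.586). Without probe sets with a letter suffix they were Mrpl12, Mrpl18, Mrpl34, Mrpl41, Mrpl57 and Mrps18a. Mrpl1 is the protein of the mobile stalk next to the site where spent transfer RNA leaves. Mrps18a had 12.55 with t10,c12-CLA, 12.77 with c9,t11-CLA, 12.90 with ritonavir and DMSO, 12.25 with ritonavir alone, 12.40 with tenofovir and 12.44 with ethanol, and its values with CLA or DMSO were all above the other 3. For Mrps10 another probe set gave -1.05 in this comparison, opposite to the one used. All 9 adipocyte markers were higher with DMSO than with ritonavir alone (median 2.08), and all 6 preadipocyte and fibroblast markers were lower (median -2.16).

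Tenofovir lay slightly above ethanol for most members. The median was 0.08, with 0.08 in the large and 0.07 in the small subunit, beside -0.01 for all detected genes, and 61 of 76 members were higher, beside 46.3%. By subunit, 41 of 47 large and 20 of 29 small subunit members were higher. Of the 35 members with another detected probe set, 21 had such a probe set of opposite sign to the one used. None differed by 1.5-fold, beside 0.0404% of detected genes lower and 0.0565% higher. The highest were Mrpl41 (0.29), Mrpl50 (0.27), Mrps25 (0.24) and Mrpl46 (0.22). The lowest was Mrpl52 (-0.32), with 11.45 with tenofovir and 11.78 with ethanol, followed by Mrps5 (-0.14), Mrpl38 (-0.08) and Mrpl39 (-0.07). Adipocyte markers were at a median of -0.02.

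With c9,t11-CLA, compared with DMSO under ritonavir, members were lower by a small and even amount. The median was -0.10, with -0.10 in each subunit, beside 0.01 for all detected genes. Lower values were found for 71 of 76 members, beside 47.6%, or 44 of 47 in the large and 27 of 29 in the small subunit. No member differed by 1.5-fold, beside 0.0727% of detected genes lower and 0.0969% higher. The lowest were Mrpl1 (-0.35), Mrps23 (-0.34), Mrpl48 (-0.26) and Mrps10 (-0.25). The highest were Mrps5 (0.07), Mrpl34 (0.03), Mrps6 (0.02) and Mrpl41 (0.00). Of the 9 adipocyte markers 6 were higher with c9,t11-CLA than with DMSO (median 0.13). All 6 preadipocyte and fibroblast markers were higher too (median 0.15).

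With t10,c12-CLA, compared with DMSO under ritonavir, the median was -0.16, with -0.13 in the large and -0.21 in the small subunit, beside 0.02 for all detected genes. Lower values were found for 70 of 76 members, beside 47.1% of detected genes, including 28 of 29 in the small subunit and 42 of 47 in the large. The remaining small subunit member, Mrps17, had 11.95 on both arrays. None differed by 1.5-fold, beside 3.96% of detected genes lower and 3.11% higher. All 9 adipocyte markers were lower with t10,c12-CLA than with DMSO (median -0.85), and all 6 preadipocyte and fibroblast markers were higher (median 0.62).

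Mrpl1 (-0.51), Mrpl9 (-0.49), Mrpl18 (-0.47), Mrpl45 (-0.46) and, in the small subunit, Mrps35 (-0.45) were lowest with t10,c12-CLA against DMSO. Mrpl9, the counterpart of bacterial L9, had 10.57 with t10,c12-CLA, 10.94 with c9,t11-CLA, 11.06 with ritonavir and DMSO, 10.57 with ritonavir alone, 10.96 with tenofovir and 11.02 with ethanol. The arrays of t10,c12-CLA and of ritonavir alone thus stood at the same level, below the other 4. Mrps35, a mitochondria-specific small subunit protein, had 11.12 with t10,c12-CLA, 11.51 with c9,t11-CLA and 11.58 with ritonavir and DMSO, so the t10,c12-CLA array stood below the others of its set. The 5 members above DMSO were Mrpl43 (0.09), Mrpl52 (0.07), Mrpl35 (0.04), Mrpl2 (0.02) and Mrpl14 (0.02).

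The isomers themselves, both at 100 µM for 5 days with ritonavir at 20 µM, differed by less than 1.5-fold for every member. The median of t10,c12-CLA minus c9,t11-CLA was -0.05, with -0.02 in the large and -0.08 in the small subunit, beside 0.01 for all detected genes, and 52 of 76 members were lower with t10,c12-CLA, beside 48.1%. By subunit, 28 of 47 large and 24 of 29 small subunit members were lower. Of all detected genes 4.96% were at least 1.5-fold lower and 3.13% higher. All 9 adipocyte markers were lower with t10,c12-CLA than with c9,t11-CLA (median -1.22), and all 6 preadipocyte and fibroblast markers were higher (median 0.47). The lowest were Mrpl18 (-0.44), Mrpl45 (-0.42), Mrps35 (-0.39) and Mrpl9 (-0.37), and the highest were Mrpl52 (0.18), Mrpl35 (0.16), Mrpl24 (0.16) and Mrpl33 (0.16). With 1 array for each isomer no interval of these differences can be given. The comparisons of each isomer with DMSO share the DMSO array.

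**Figure D3:**
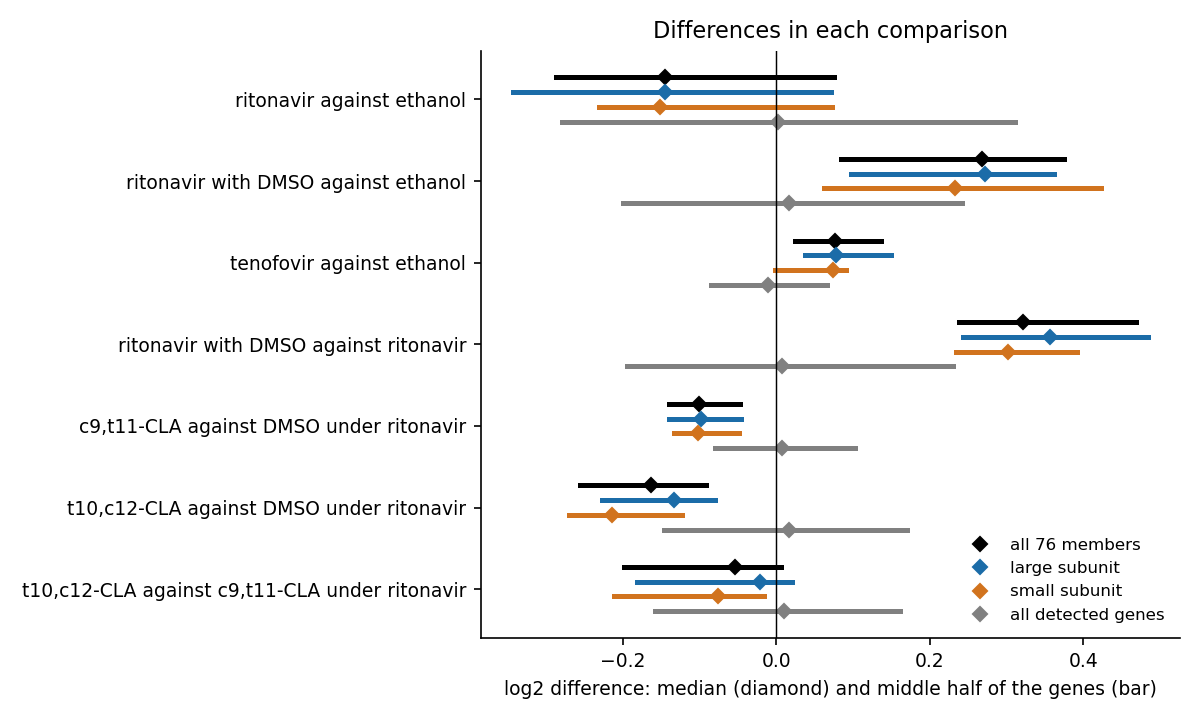
Log2 differences (horizontal axis) in each of the 7 comparisons, with the median as a diamond and the range from the lower to the upper quartile of the genes as a bar, for all 76 members, the large subunit, the small subunit and all detected genes. The member median was highest for ritonavir with DMSO against ritonavir alone (0.32) and lowest for t10,c12-CLA against DMSO (-0.16).

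Some pairs of comparisons share no array, although all 6 arrays were normalised together. Ritonavir minus ethanol and t10,c12-CLA minus DMSO under ritonavir had a Pearson r of 0.51 and a Spearman rho of 0.43 across the 76 members. Lower in both were 49 members, beside 3632 of 12386 detected genes. Since 51 members were lower in the first and 70 in the second, most of this overlap follows from those counts. The large subunit members gave r of 0.63 and the small subunit members 0.21. Over all 12386 detected genes r was 0.54. Ritonavir minus ethanol and t10,c12-CLA minus c9,t11-CLA gave r of 0.62 over the members (0.73 in the large and 0.40 in the small subunit) and 0.64 over all detected genes.

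**Figure D4:**
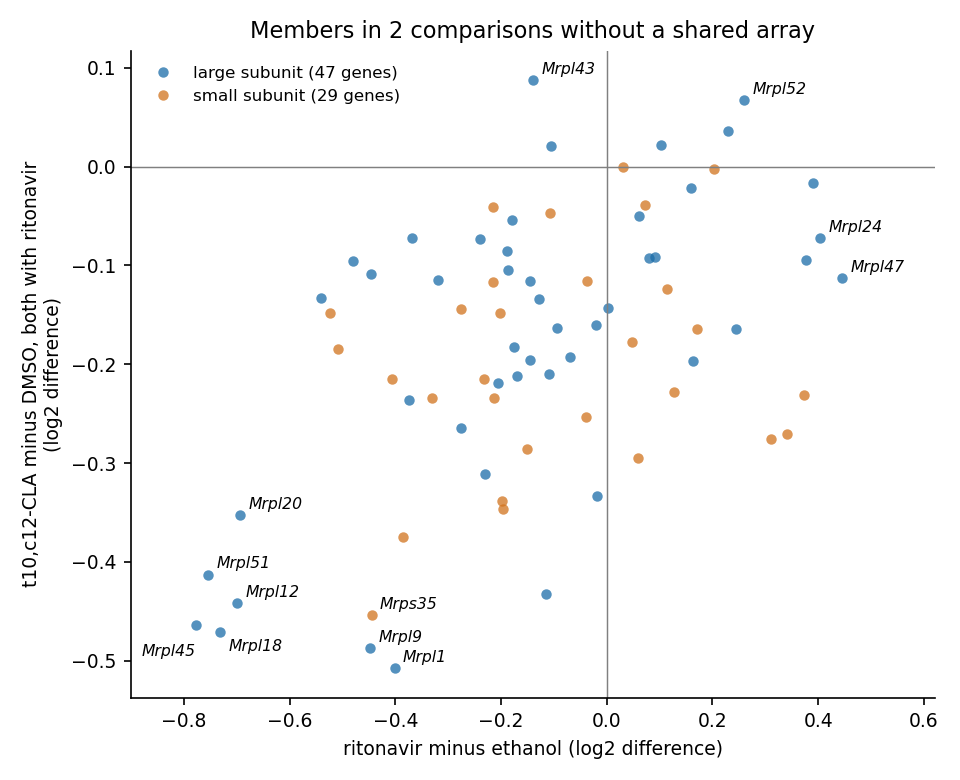
Each point is a member, with its log2 difference of ritonavir minus ethanol on the horizontal axis and of t10,c12-CLA minus DMSO under ritonavir on the vertical axis, large and small subunit members in separate colours. Of the 76 members, 51 lay below 0 on the horizontal axis and 70 on the vertical axis, which fixes most of the overlap. Below 0 on both axes were 49, among them Mrpl45 and Mrpl18 at the lower left, beside 3632 of 12386 detected genes.

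The 2 ritonavir cultures without CLA were also set against different arrays without ritonavir. Ritonavir minus tenofovir and ritonavir with DMSO minus ethanol gave r of 0.56 and rho of 0.58 over the members, with medians of -0.22 and 0.27. Ritonavir minus ethanol and ritonavir with DMSO minus tenofovir gave r of 0.73 and rho of 0.78, with medians of -0.15 and 0.15. Members were thus ordered with a positive coefficient in both pairs, while the medians lay on opposite sides of 0. Over all detected genes r was 0.71 and 0.76 for these pairs. Ritonavir minus ethanol and c9,t11-CLA minus DMSO gave r of -0.31 over the members and -0.33 over all detected genes. These coefficients describe genes, which share arrays and normalisation and are not independent replicates.

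Other genes of mitochondrial gene expression were examined as lists beside the members. To set beside their counts, 49.8% of detected genes were lower and 50.2% higher in ritonavir against ethanol. Higher were 52.0% in ritonavir with DMSO against ethanol and 50.9% in ritonavir with DMSO against ritonavir. Lower were 47.1% in t10,c12-CLA against DMSO. In ritonavir against ethanol the 27 detected of 29 genes for ribosome assembly and ribosomal RNA modification had a median of 0.12, with 12 lower and 15 higher. At least 1.5-fold higher were 3 of them, beside 12.4% of detected genes, and the highest was Rpusd4 (0.78), a pseudouridine synthase of mitochondrial ribosomal RNA. The lowest was Rpusd3 (-0.46). With DMSO against ethanol 25 of the 27 were higher, the median was 0.29, and Fastkd2 (0.87), an RNA-binding protein of the large subunit's assembly, was highest. In ritonavir with DMSO against ritonavir 21 were higher (median 0.16), with Tfb1m, the methyltransferase of the small ribosomal RNA, at 0.64. With t10,c12-CLA against DMSO 20 were lower (median -0.07), and Mrm2 (-0.61), which methylates the large ribosomal RNA, and Tfb1m (-0.60) were the 2 that were at least 1.5-fold lower, beside 3.96% of detected genes.

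Of the mitochondrial translation factors, 18 of 21 were measured, and 9 were lower and 9 higher with ritonavir than with ethanol (median 0.00). Tufm (-0.44), the elongation factor that brings transfer RNA to the ribosome, was lowest, and Lrpprc (0.63), which stabilises mitochondrial messenger RNAs, and Guf1 (0.63), a factor related to bacterial LepA, stood above ethanol by 1.5-fold or more, beside 12.4% of detected genes. Rmnd1 was also higher with ritonavir, but its value with ethanol, 6.32, was below the detection level, so the size of its difference is uncertain. Of the 18 detected aminoacyl-tRNA synthetase genes, which charge the transfer RNAs, 13 were lower (median -0.20), from Yars2 (-0.41) to Wars2 (0.52). The 8 genes for transcription of mitochondrial DNA had a median of -0.11, with 5 lower, from Mterf2 (-0.48) to Mterf1a (0.32), both of a family that binds mitochondrial DNA, and Tfam, which packages that DNA, was at -0.02. All 8 were higher with ritonavir and DMSO than with ritonavir alone (median 0.17), Tefm, the elongation factor, most of all (0.83).

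The 17 detected genes for other mitochondrial membrane and matrix proteins had a median of -0.20 with ritonavir against ethanol, and 12 were lower. At least 1.5-fold lower, beside 12.4% of detected genes, were 3 of them, Tomm70a (-0.71), an import receptor, Immt (-0.67), which shapes the cristae, and Cs (-0.64), citrate synthase. The chaperonin subunit Hspe1 (0.40) was highest. With DMSO, compared with ritonavir alone, 15 of the 17 were higher (median 0.19), and with t10,c12-CLA, compared with DMSO, all 17 were lower (median -0.21), as far as -0.48 for Cs. Of 5 ribosomal proteins whose symbols do not begin with Mrp, 4 were measured. In ritonavir against ethanol these 4 had a median of 0.07, with 3 higher and only Ptcd3 (-0.15) lower. Chchd1, in the small subunit, was highest, at 0.49 with ritonavir and 0.92 with ritonavir and DMSO, each against ethanol.

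**Figure D5:**
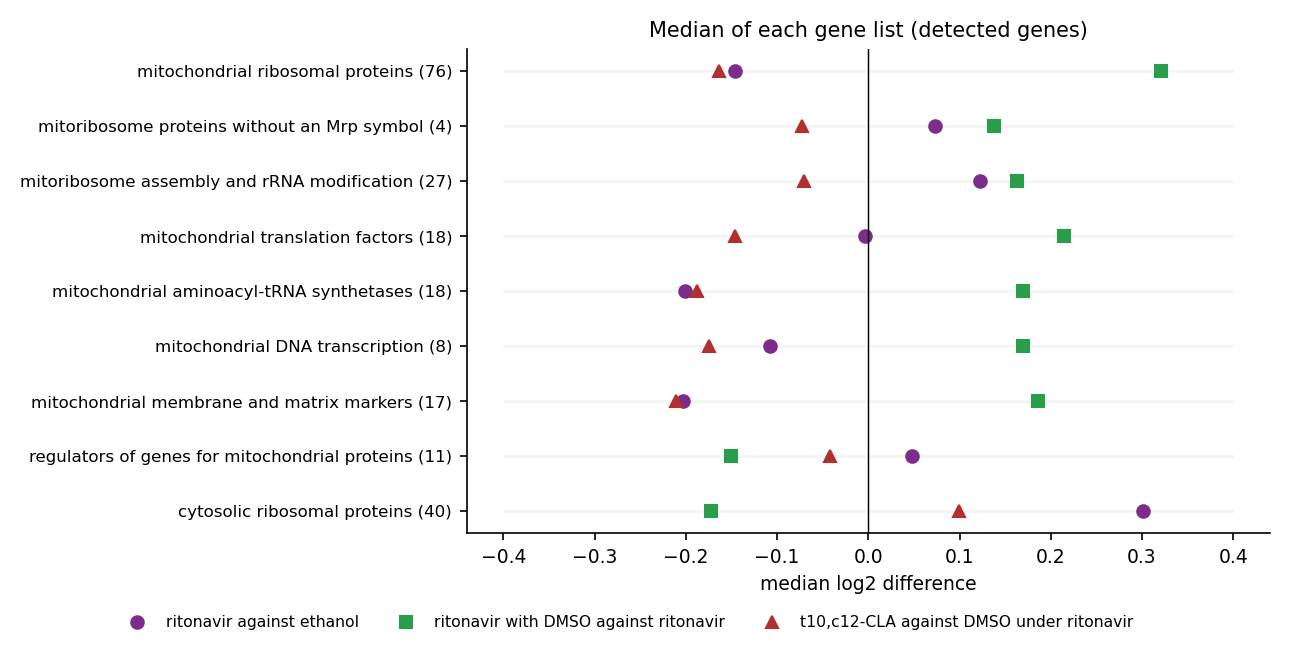
Median log2 difference (horizontal axis) of the members and of each other gene list, with its number of detected genes in brackets, in ritonavir against ethanol (circles), ritonavir with DMSO against ritonavir alone (squares) and t10,c12-CLA against DMSO under ritonavir (triangles). In ritonavir against ethanol the medians of the lists for mitochondrial proteins ran from -0.20 for the membrane and matrix proteins and the aminoacyl-tRNA synthetases to 0.12 for ribosome assembly, with the members at -0.15.

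Genes for known regulators of nuclear mitochondrial genes differed among themselves. The coactivator gene Ppargc1a was higher with ritonavir than with ethanol (2.04) and also with ritonavir and DMSO (1.79). Its relative Ppargc1b was lower with ritonavir than with ethanol (-0.96), higher with DMSO than with ritonavir alone (0.80) and lower with t10,c12-CLA than with DMSO (-0.59). Pprc1, another coactivator of the family, was at 0.79 in ritonavir against ethanol, and Esrra, a nuclear receptor that these coactivators bind, was at -0.48. Esrra was at 0.61 for DMSO against ritonavir alone and at -0.44 for t10,c12-CLA against DMSO. In the first of these comparisons 8 of the 11 listed regulators were lower (median -0.15), beside 49.1% of detected genes, and Myc was lowest (-0.65). In the second 7 of the 11 were lower (median -0.04), beside 47.1%, and Myc was highest (0.43). For 4 other factors whose motifs were searched, ritonavir against ethanol gave 0.05 for Nrf1, 0.25 for Gabpa, -0.17 for Yy1 and 0.13 for Myc. These are levels of messenger RNA, and the relation of any of them to the members was not tested.

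Of the 76 members, 35 had another detected probe set, 63 in all. In ritonavir against ethanol 15 of the 63, in 13 members, had the opposite sign to the probe set used, and the only one past 1.5-fold was a probe set of Mrpl15, at 0.67 where the one used gave -0.12. In the other comparisons 10 (t10,c12-CLA against DMSO) to 28 (tenofovir against ethanol) of the 63 had the opposite sign.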

How the data were processed

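Probe set values of 6 Affymetrix Mouse Genome arrays were analysed, 1 array per group, each hybridised with RNA pooled from 4 replicate experiments. The deposited values of 45101 probe sets are on the log2 scale, from 2.17 to 15.01, made by the authors with RMA in Affymetrix Expression Console, per the submitters' processing notes. The sources used here name neither its version nor its settings. In RMA the background is subtracted, the arrays are brought to one distribution and probes are summarised, which removes any shift that most genes of an array have in common.

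The platform annotation gave 1 symbol for 34958 probe sets, several for 932 (not used) and none for the 9211 it does not list. Gene identifiers were found in RefSeq for 34754 and changed 0 symbols. A gene took its probe set with the highest mean, and was called detected at 6.55, the table's median, on at least 1 array. Log2 differences were computed between single arrays in 7 comparisons, with counts past 1.5-fold (0.585 on the log2 scale) and 2-fold. There are no replicate arrays, so the number of arrays limits the precision and no test was run. Apart from the summed marker levels, their main contributors and remarks on where values lie on the scale, levels of different genes were not compared. Probe sets differ in response, which also limits those sums.

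Genes named in the text are, for each comparison, the members past 1.5-fold and at least the 4 highest and 4 lowest, the members in the listed positions of the ribosome, up to 2 genes at each end of the other lists, and the regulators. Members and lists were chosen with earlier results of these data known. Alternatives were another choice of probe set, other detection levels, renewed quantile normalisation, removal of a trend with level by lowess (span 0.3), the tenofovir array in place of ethanol, the structural placement of 3 members and unchanged platform symbols. The computation was tested on simulated data for 12386 genes and recovered all 4 settings. The software was matplotlib 3.10.9, statsmodels 0.14.6, pandas 2.3.3, scipy 1.17.1 and numpy 2.4.6 under Python 3.11.15. Promoters of 9 members and probe sets with several symbols were not analysed here.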

Additional observations from a re-analysis of the deposited data

How the results depend on the processing

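Of 232 values recomputed for 28 results (medians, subunit differences and 1.5-fold counts in the 7 comparisons), 225 stayed within the tolerance set for them, and no value above 0.1 in size on the log2 scale changed sign. Subunit differences near 0 did: that of ritonavir against ethanol (0.01) was -0.07 with members placed by known position and -0.10 against tenofovir, and those of c9,t11-CLA against DMSO and of t10,c12-CLA against c9,t11-CLA each moved to just below 0 under 1 alternative. With every probe set of a gene averaged, the large minus small subunit median in ritonavir against ethanol was -0.15, against 0.01 with the probe set used, 2 members (Mrpl13 and Mrps10) were at least 1.5-fold higher there, against 0, and the median of tenofovir against ethanol was 0.0612. Without probe sets whose names carry any letter suffix (_a_at, _s_at or _x_at), which left 61 members, 3 (Mrpl12, Mrpl18 and Mrpl45) were at least 1.5-fold lower with ritonavir, against 5. Under this alternative and the averaging of probe sets, the members at least 1.5-fold higher with DMSO than with ritonavir alone also changed. Their count stayed within its tolerance, a factor of 1.5. With tenofovir in place of ethanol the medians were -0.22 for ritonavir and 0.15 for ritonavir with DMSO, and 1 member (Mrpl52) was at least 1.5-fold higher in the comparison with DMSO, against 0. The cause of these shifts was not tested. Over the alternatives the medians ran from -0.22 to -0.10 for ritonavir, 0.15 to 0.27 for ritonavir with DMSO and 0.06 to 0.08 for tenofovir, each against ethanol, from 0.30 to 0.32 for DMSO against ritonavir alone, and, under ritonavir, from -0.10 to -0.09 for c9,t11-CLA and -0.17 to -0.15 for t10,c12-CLA against DMSO and -0.08 to -0.04 for t10,c12-CLA against c9,t11-CLA. Platform symbols gave identical values, since 0 symbols had changed. No paired analysis was possible because each group is 1 array. Pooled RNA on 1 array per group leaves the spread between experiments unknown, and differences of the size of these medians cannot be separated from differences between arrays.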

Other observations

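Cytosolic ribosomal proteins, a list of 40 genes chosen after values were seen, were mostly higher with ritonavir than with ethanol. In that comparison 38 of 40 were higher (median 0.30), from Rpl39 (-0.03) to Rpl12 (2.18), and 7 were at least 1.5-fold higher, beside 12.4% of detected genes. With ritonavir and DMSO 34 of 40 were higher than with ethanol (median 0.14), and 35 were lower than with ritonavir alone (median -0.17), as far as -1.33 for Rpl12. With c9,t11-CLA 33 were lower than with DMSO (median -0.05). With t10,c12-CLA 37 were higher than with DMSO (median 0.10) and 38 were higher than with c9,t11-CLA (median 0.16), as far as 0.57 and 0.58 for Rpl14. The shares of detected genes that differed in these directions were, in the same order, 50.2%, 52.0%, 49.1%, 47.6%, 52.8% and 51.8%. Their values lie near the upper end of the scale, where differences on an array can be compressed.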
